A study of Mus musculus with 19 samples.

Results

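The T-cell receptor beta CDR3s described here are the 2698 amino acid sequences that were listed in the blood of all 9 mice of the study, of 127610 different CDR3s listed in any of them (2.11%). They were chosen by presence alone, at 1 read or more in each of the 9 clonotype tables, so their presence in every mouse is not a finding. The CDR3s they are set against are the 93004 that were listed in 1 mouse only (72.9%). The 9 samples were peripheral blood mononuclear cells of C57BL/6N mice taken 12 days after the animals received B16-F10 melanoma cells, a C57BL/6 mouse tumour line. In 4 mice the tumour cells carried a scrambled control (SCR), and in 5 mice they were knocked out for Mettl5, an rRNA methyltransferase gene (KO). The hosts themselves were not labelled as modified, so the groups differed in the tumour line. The labels gave no age or sex and did not say how many knockout clones were used. Each sample was labelled as a separate replicate. The tables held receptor reads only, so the labelled cell type was not checked against other markers.

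The beta chain of the T-cell receptor is assembled in the thymus by joining a V, a D and a J gene, with bases trimmed from the ends and untemplated bases added at the 2 joints by terminal transferase. The CDR3 is the stretch across these joints and makes most of the contact with the antigenic peptide. A CDR3 that needs few added bases can be reached by many different joining events, and the genetic code lets several nucleotide sequences give the same amino acids; the appearance of one CDR3 in many individuals through such separate events is called convergent recombination, and such CDR3s are called public. No CDR3 sequence is printed. A CDR3 is named by its rank in mean read share over the 9 mice, its length in amino acids and its V and J genes. These are the V gene and the J gene with the largest read share summed over the 9 mice.

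The tables held 5277004 to 6912106 reads and 22351 to 34593 CDR3s per mouse. CDR3s at 100 reads or more numbered 1126 to 2488 in the SCR mice and 3004 to 4853 in the KO mice, and they held 97.3% to 98.7% of the reads of each mouse. The SCR repertoires held fewer and larger CDR3s: those of at least 6000 reads numbered 202 to 437 in the SCR mice and 31 to 102 in the KO mice. Reads were copies made by amplification without stated molecular identifiers and are not independent molecules or cells.

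Listing in a mouse rested mostly on a few reads. The 2698 CDR3s gave 24282 pairs of a CDR3 and a mouse, of which 16720 (68.9%) held fewer than 10 reads, 3702 (15.2%) held 10 to 99 and 3860 (15.9%) held at least 100. The median was 5 reads in the pairs below 100 reads and 3430.5 reads in the pairs at or above 100. In every mouse the read counts formed a low set, which thinned out towards 100 reads, and a separate high set above it. In 1084 members (40.2%) at least 1 mouse held a single read, and 1419 CDR3s remained in all 9 mice when clonotypes of 1 read were dropped. Only 150 members (5.56%) had 10 reads in all 9 mice, and 1 had 100 reads in all 9. The number of mice with at least 100 reads, a limit set after the counts had been seen, divides the members below: 664 (24.6%) reached it in no mouse, 1120 (41.5%) in 1 mouse and 914 (33.9%) in 2 to 9 mice.

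**Figure D1:**
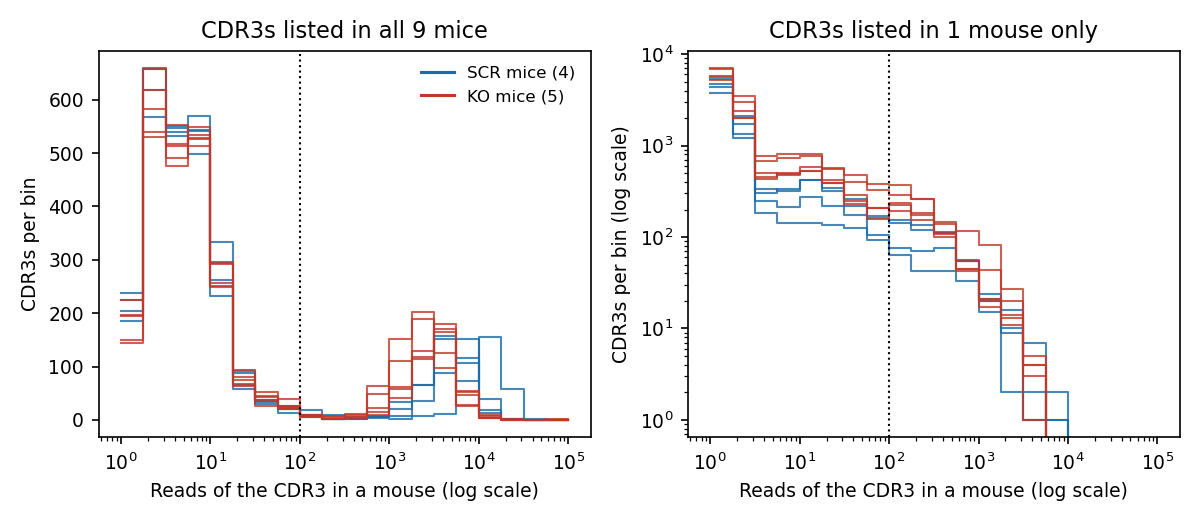
Number of CDR3s (y axis) by the reads of the CDR3 in a mouse (x axis, log scale) for the CDR3s listed in all 9 mice (left, linear y axis) and in 1 mouse only (right, log y axis); each line is 1 mouse, blue for the 4 SCR and red for the 5 KO mice, and the dotted line marks 100 reads. On the left every mouse shows a low set and a separate high set. Over all mice together the medians were 5 reads below 100 reads and 3430.5 at or above it. On the right there is no second set.

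The low reads often carried the same nucleotide sequence as the high reads of another mouse. Of the 1120 members with 100 reads in 1 mouse, 8960 entries in the other mice were below 100 reads, and 7583 of them (84.6%) listed the very nucleotide sequence that led in the abundant mouse, with 59.5% of the reads of these entries. Among the low entries of the 914 members with 100 reads in 2 to 9 mice, 3899 of 5486 (71.1%) listed a leading sequence, which held 29.1% of their reads. In 1387 members (51.4%) at least 1 identical nucleotide sequence was listed in all 9 mice, 1420 sequences in all. Over all nucleotide sequences that reached 100 reads in exactly 1 mouse, listing elsewhere rose with the reads in that mouse. Of 11245 sequences with 100 to 1000 reads, 60.4% were listed nowhere else and 0 in all 9 mice. At 1000 to 3000 reads 0.684% of 9068 were listed in all 9, at 3000 to 6000 reads 7.49% of 4382, and at 6000 reads or more 31.8% of 1313.

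The reads found in each of the other mice stood in a nearly fixed proportion to the reads of the abundant mouse, at 0.398, 0.450, 0.483 and 0.476 per 1000 in these 4 read ranges. Across the 72 ordered pairs of mice the proportion was 0.360 to 1.46 per 1000 with a median of 0.436. The highest values were 1.46 from KO 4 to KO 5, 1.36 from KO 2 to KO 1 and 0.780 from KO 5 to KO 4, and the other 69 pairs lay between 0.360 and 0.566. The median was 0.445 between mice of 1 group and 0.435 between mice of different groups. Reads shared between libraries and separate joining events in each mouse could both give low reads; the part of each was not tested. Membership by 1 read is therefore reported below beside the counts at 100 reads.

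The number of CDR3s fell steeply from 1 mouse to 2 mice and then levelled off. CDR3s listed in exactly 1, 2, 3, 4, 5, 6, 7, 8 and 9 mice numbered 93004, 10454, 5015, 3934, 3466, 3305, 3048, 2686 and 2698. When 100 reads were required in each mouse counted, the numbers fell at every step, at 19369, 1656, 490, 184, 75, 33, 18, 10 and 1. Just outside the rule, the 2686 CDR3s listed in 8 mice had a mean length of 13.41 and 3.05 nucleotide sequences each, beside 13.27 and 6.19 for the members. Those 8-mouse CDR3s held 17.5% ± 2.92 (SD, n = 4) of reads in SCR mice and 13.8% ± 3.30 (SD, n = 5) in KO mice.

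**Figure D2:**
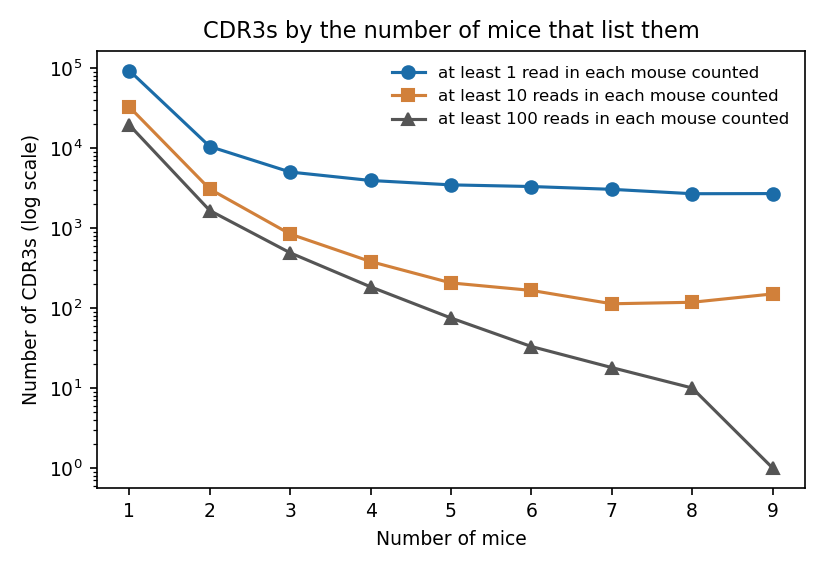
Number of CDR3s (y axis, log scale) by the number of mice that list them (x axis), when a mouse counts at 1 read (circles), 10 reads (squares) or 100 reads (triangles). The count at 1 read levels off at 3048, 2686 and 2698 in 7, 8 and 9 mice, while the count at 100 reads goes down to 1 CDR3 in 9 mice.

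The CDR3s listed in all 9 mice held 40.7%, 62.0%, 28.8% and 34.2% of the reads of SCR mice 1 to 4, and 20.2%, 25.9%, 26.5%, 25.7% and 22.7% of the reads of KO mice 1 to 5. Every SCR mouse lay above every KO mouse. The means were 41.4% ± 14.6 (SD, n = 4) in SCR and 24.2% ± 2.69 (SD, n = 5) in KO mice, a difference of -17.2 percentage points; without SCR 2 it was -11.2, and over the 24 CDR3s left when clonotypes below 10 reads were dropped it was -0.54. Exact (Clopper-Pearson) 95% intervals of these shares were at most 0.0839 percentage points wide and cover counting error only. No test is given for this sum, because the members were chosen with these reads known. The difference was mainly in members abundant in 1 mouse. The 1120 members with 100 reads in 1 mouse held 19.6%, 39.0%, 8.89% and 12.9% in the SCR mice (20.1% ± 13.4, SD, n = 4) and 4.26%, 7.46%, 8.39%, 7.67% and 5.04% in the KO mice (6.56% ± 1.80, SD, n = 5). The groups again did not overlap, and SCR 2 was the highest.

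The 914 members with 100 reads in 2 to 9 mice held much the same share from mouse to mouse. Their shares were 21.04%, 22.9%, 19.8% and 21.2% in SCR mice 1 to 4 and 15.9%, 18.4%, 18.1%, 18.0% and 17.6% in KO mice 1 to 5. The means were 21.2% ± 1.25 (SD, n = 4) and 17.6% ± 1.00 (SD, n = 5), and the groups did not overlap. With 100 reads in 3 to 9 mice (480 members) the means were 14.2% ± 1.03 and 12.6% ± 1.09, and with 5 to 9 mice (111 members) 5.49% ± 0.95 and 4.83% ± 0.43; here the groups overlapped. The 664 members that stayed below 100 reads in every mouse held 0.0513% to 0.0624% of the reads of any mouse. The CDR3s listed in 1 mouse only held 3.58%, 2.09%, 4.22% and 4.58% in the SCR mice and 7.67%, 4.41%, 4.69%, 4.29% and 6.54% in the KO mice.

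Beside these shares stands the size of the CDR3s in each repertoire, since listing elsewhere rose with reads. The CDR3s of at least 6000 reads held 48.2% ± 26.8 (SD, n = 4) of reads in SCR and 8.90% ± 4.76 (SD, n = 5) in KO mice, with no overlap. Members made up 54.9% ± 8.66 of these large CDR3s in SCR mice and 59.6% ± 12.4 in KO mice, and these ranges overlapped. By number, members at 100 reads were more frequent in the KO mice, at 423 to 568 per mouse against 329 to 403 in the SCR mice. As a share of all CDR3s at 100 reads they were 21.1% ± 6.11 in SCR and 13.4% ± 1.18 in KO mice. The part of clone size in the difference of read shares was not tested. A measure that leaves the described mouse out of the choice gave a smaller difference: CDR3s with 100 reads in at least 2 other mice held 18.4%, 17.6%, 15.6% and 18.0% of reads in the SCR mice and 13.6%, 16.2%, 16.1%, 16.5% and 14.5% in the KO mice. These ranges overlapped (17.4% ± 1.21 against 15.3% ± 1.26). By number, such CDR3s were 13.02% ± 0.72 of the CDR3s at 100 reads in SCR and 11.3% ± 0.83 in KO mice, and these ranges did not overlap, though 12.18% and 12.13% were their nearest values.

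**Figure D3:**
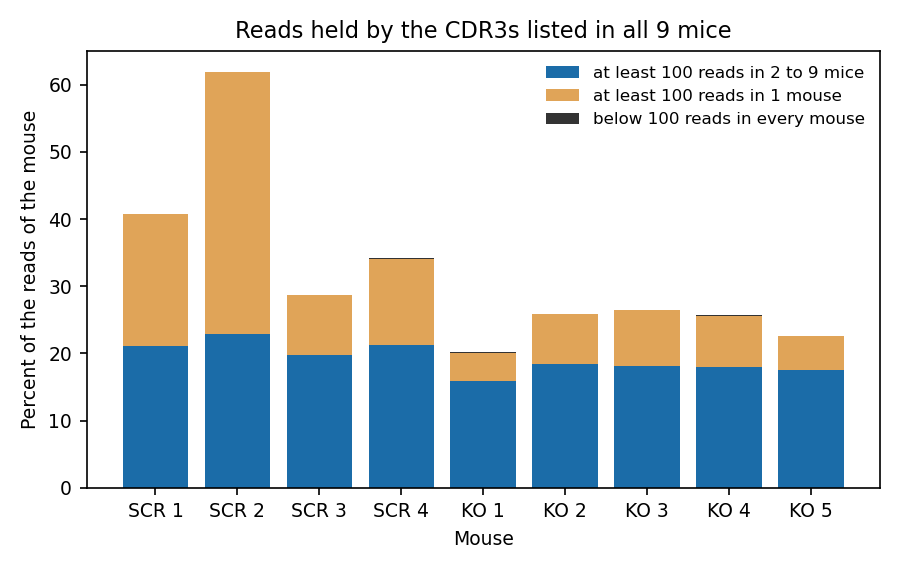
Percent of the reads of each mouse (y axis, from 0) held by the CDR3s listed in all 9 mice, for the 4 SCR and 5 KO mice (x axis), stacked by the number of mice in which a CDR3 had at least 100 reads. The blue part (2 to 9 mice) lies between 15.9% and 22.9% in every mouse, and the orange part (1 mouse) ranges from 4.26% in KO 1 to 39.0% in SCR 2; the part below 100 reads everywhere is too thin to see.

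Within the members, reads were concentrated in 1 mouse for many and spread for some. In 1124 members (41.7%) a single mouse held over 90% of the CDR3's summed reads, in 776 (28.8%) over 99%, and in 943 (35.0%) no mouse held 50%. The 10 members of largest mean share together held 1.09% ± 0.483 (SD, n = 9 mice) of reads, and the first 100 held 6.02% ± 4.09. The member of rank 1 (TRBV12-1, TRBJ2-7, 13 amino acids) had 43, 69, 52 and 36 reads in SCR mice 1 to 4 and 131, 80973, 66, 159 and 53 in KO mice 1 to 5. Its mean share thus came from KO 2 alone, and 1 and the same nucleotide sequence led in all 9 mice. The member of rank 2 (TRBV12-1, TRBJ2-7, 12 amino acids) had 4971, 6708, 10442 and 12426 reads in the SCR mice and 13140, 4695, 93, 8718 and 16057 in the KO mice. It was abundant in every mouse except KO 3, and 58 nucleotide sequences encoded it, with 8 different ones leading across the mice.

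The member of rank 3 (TRBV4, TRBJ2-7, 14 amino acids) was the one CDR3 with 100 reads in every mouse. It had 3114, 13466, 11733 and 19634 reads in SCR mice 1 to 4 and 5757, 10165, 1157, 3671 and 974 in KO mice 1 to 5. Its ranges in the 2 groups overlapped, 71 nucleotide sequences encoded it, and 8 of them led in at least 1 mouse. Rank 4 (TRBV12-1, TRBJ1-2, 12 amino acids) had 11424, 29907, 12 and 34 reads in the SCR mice and 11658, 4112, 17, 52 and 9879 in the KO mice. Rank 5 (TRBV12-1, TRBJ1-2, 13 amino acids) had 52, 22817, 9344 and 4619 reads in the SCR mice and 3628, 73, 24, 7372 and 13695 in the KO mice. Both were high in some mice of each group and low in the rest. The member with the most nucleotide sequences, 73, was rank 8 (TRBV12-2, TRBJ2-7, 14 amino acids), at 83, 7928, 6989 and 9782 reads in the SCR mice and 5681, 2730, 7881, 4421 and 5512 in the KO mice. At the other end, the members of ranks 2696, 2697 and 2698 had 1 to 3 reads in every mouse.

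Beyond rank 3, 10 members reached 100 reads in 8 mice, a set named after its values were seen. Of these, 9 used TRBJ2-7 and 1 used TRBJ1-1. All 10 ranked within the first 100, had 11 to 14 amino acids and were encoded by 10 to 73 nucleotide sequences each. The mouse below 100 reads was SCR 1 for 3 of them, SCR 2 for 4, KO 3 for 2 and KO 4 for 1.

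Members were shorter and less variable in length than CDR3s listed in 1 mouse. They had 6 to 17 amino acids, a mean of 13.27 ± 1.39 (SD over CDR3s) and a median of 13, and 87.1% had 12 to 15. One-mouse CDR3s had 4 to 44 amino acids, a mean of 15.17 ± 5.99 and a median of 14, and 4828 of them (5.19%) were longer than 20, against 0 of the members. Taken mouse by mouse, members were 1.86 amino acids shorter on average (difference -1.86 ± 0.19, SD, n = 9), and this held in 9 of 9 mice. Among CDR3s of at least 100 reads in the mouse the difference was -1.97 ± 0.37 (SD, n = 9), again in 9 of 9. These mean differences include the one-mouse CDR3s longer than 20, which were also 5.16% of those with 100 reads. The medians of 13 and 14 lay closer together than the means. How much of the mean difference the long CDR3s made up was not tested. Single reads formed much of the one-mouse set, whose median was 1 read per CDR3 and mouse.

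Fewer bases had been added at the joints of the members. Their leading clonotypes, those of largest read share in any mouse, carried a mean of 2.97 ± 2.19 inserted bases (SD over CDR3s, median 3). Of these, 14.3% carried none. One-mouse CDR3s carried a mean of 8.67 ± 16.7 (SD over CDR3s, median 5) with 5.61% at none. Those with 100 reads carried a mean of 7.36 ± 16.7 (SD over CDR3s, median 4) with 7.96% at none. Both means lay well above their medians, so CDR3s with many inserted bases weigh on the mean differences. The mean difference per mouse was -5.54 ± 0.55 (SD, n = 9) over all reads and -4.99 ± 0.92 at 100 reads, with members lower in 9 of 9 mice in both. Within the members the mean insertions were lower where more mice had 100 reads, though not at every step: 3.65 in no mouse, 3.35 in 1, 2.23 in 2, 2.01 in 3, 1.61 in 4, 1.86 in 5, 1.35 in 6, 0.94 in 7 and 1.30 in 8 mice. The 1 member with 100 reads in all 9 mice had 3 inserted bases. The share without any insertion was 9.19% in no mouse, 10.1% in 1 mouse and 23.3% in 2 to 9 mice.

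More nucleotide sequences encoded a member than a one-mouse CDR3. Over the 9 mice a member had a mean of 6.19 ± 6.37 sequences (SD over CDR3s, median 4, highest 73), and 389 members (14.4%) had a single sequence in all mice. A CDR3 seen in more mice has more occasions to show variants, so the comparison was also made within mice. There, members had 1.11 ± 0.07 (SD, n = 9) more sequences per CDR3 than one-mouse CDR3s, and 2.69 ± 0.40 more among CDR3s of at least 100 reads, higher in 9 of 9 mice in both. Every sequence of 1 read or more was counted, and members had median reads of 5 to 6 in a mouse against 1 to 2. The comparison thus does not set aside the number of reads or any reads shared between libraries, whose part was not tested. Counting only sequences of at least 10 reads over the 9 mice, the members' mean was 1.88. Sequences per member rose with the number of mice at 100 reads, from 2.75 in no mouse and 4.12 in 1 to 7.66 in 2, 10.9 in 3, 14.1 in 4, 17.4 in 5, 23.6 in 6, 26.4 in 7 and 39.4 in 8 mice. These counts were pooled over the 9 mice, and each further mouse at 100 reads gave more reads in which sequences could be listed. The rise is thus tied in part to how both numbers were counted.

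**Figure D4:**
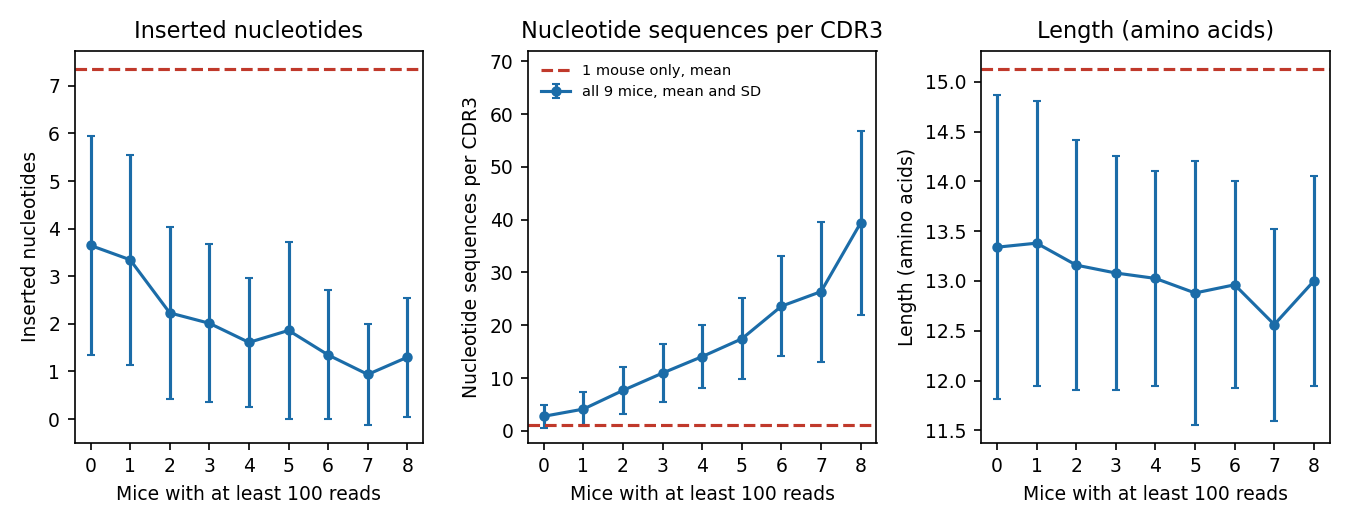
Inserted bases of the leading clonotype, nucleotide sequences per CDR3 over 9 mice and length in amino acids (y axes) of the CDR3s listed in all 9 mice, by the number of mice with at least 100 reads (x axis). Points are means and bars SDs over CDR3s, and the dashed line is the mean of one-mouse CDR3s with 100 reads. Insertions go from 3.65 to 1.30 and sequences from 2.75 to 39.4 between 0 and 8 mice, and every mean length is below the dashed line at 15.13. The sequence count is pooled over the mice and so is tied in part to the x axis.

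The abundant copies in different mice mostly had different nucleotide sequences. Of the 914 members with 100 reads in 2 to 9 mice, 753 (82.4%) had a different leading sequence in each of those mice, and 29 (3.17%) had the same one in all of them. Among the 434 members with 100 reads in exactly 2 mice, 409 had different leading sequences and 25 the same. In the 118 members with 100 reads in 4 mice, 82 had 4 different ones and 0 a single one. In those 753 members no nucleotide sequence led in more than 1 of the mice with 100 reads.

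Members drew on 14 V genes, which encode the other loops that touch the MHC molecule. Each member was assigned the V gene with the largest read share summed over its nucleotide sequences and the 9 mice. The 5 most frequent were TRBV16 with 551 members (20.4%), TRBV12-1 with 349 (12.9%), TRBV4 with 331 (12.3%), TRBV14 with 323 (12.0%) and TRBV15 with 308 (11.4%). Among V genes with at least 1% of either set, the ratio of the members' share to the one-mouse share was highest for TRBV16 (20.4% against 11.9%, ratio 1.71), TRBV30 (1.11% against 0.723%, 1.54) and TRBV17 (7.49% against 5.42%, 1.38). It was lowest for TRBV26 (3.56% against 6.09%, 0.58), TRBV4 (12.3% against 20.6%, 0.60) and TRBV12-1 (12.9% against 14.4%, 0.90). Among one-mouse CDR3s with 100 reads TRBV16 was at 18.2% and TRBV12-1 at 8.89%, which puts TRBV12-1 above and TRBV16 nearer to that set. TRBV20 made up 2.95% of members with 100 reads in 2 to 9 mice and 12.0% of one-mouse CDR3s with 100 reads. Between these same 2 sets TRBV30 and TRBV17 were not higher in members, at 0% against 1.08% and 4.27% against 5.20%. TRBV16 was at 22.1% against 18.2%.

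V gene calls were not unique. Of 15501 pairs of a nucleotide sequence and a mouse at 1000 reads or more, 86.5% listed more than 1 V gene, with a mean of 4.11, although the leading V gene held a median of 99.5% of the reads. The V gene could also differ between mice for one CDR3: the V gene given above for rank 3 led in 2 of 9 mice and that of rank 2 in 3 of 9. By reads, TRBV26 took 1.79%, 4.51%, 4.21% and 3.09% of the members' reads in SCR mice 1 to 4 and 5.57%, 6.35%, 6.04%, 5.02% and 5.93% in KO mice 1 to 5. Every KO mouse was above every SCR mouse for this gene (5.78% ± 0.51, SD, n = 5, against 3.40% ± 1.24, SD, n = 4). It was the only one of the members' 14 V genes without overlap of the groups, and the difference was not tested.

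The J genes, which lie in 2 clusters each behind its own D gene, divided the sets more sharply. TRBJ2-7, in the second cluster, was in 1687 members (62.5%) and in 33.5% of one-mouse CDR3s, and in 14.6% of one-mouse CDR3s with 100 reads. TRBJ2-2 was in 395 members (14.6% against 12.4%), TRBJ1-2 in 264 (9.79% against 9.37%), TRBJ1-1 in 171 (6.34% against 11.7%) and TRBJ2-1 in 170 (6.30% against 10.7%). TRBJ2-5 was in 7 members (0.259% against 6.96%), TRBJ2-4 in 3 (0.111% against 3.78%) and TRBJ1-6 in 1. TRBJ1-3, TRBJ1-4, TRBJ1-5, TRBJ1-7, TRBJ2-3 and TRBJ2-6 were in none. Of these, TRBJ1-7 was in 4840 one-mouse CDR3s, TRBJ2-3 in 2412, TRBJ1-4 in 867, TRBJ1-5 in 583, TRBJ1-3 in 13 and TRBJ2-6 in 1. TRBJ1-3 and TRBJ2-6 were thus nearly absent from both sets. By cluster, 2262 members (83.8%) used a TRBJ2 gene and 436 (16.2%) a TRBJ1 gene, against 69.9% and 30.1% of one-mouse CDR3s. At 100 reads the clusters did not divide the sets this way. TRBJ2 genes were in 76.8% of members with 100 reads in 2 to 9 mice and 78.1% of one-mouse CDR3s with 100 reads. TRBJ1-1 and TRBJ2-1, lower in members above, were higher there, at 12.4% against 5.86% and 9.19% against 3.79%.

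Several J genes rare among members had small CDR3s, but not all of them. At 100 reads the median was 390 reads per CDR3 for TRBJ2-5, 245 for TRBJ2-4 and 162 for TRBJ2-3, but 1007 for TRBJ1-6, against 2234 for TRBJ2-7 and 4043.5 for TRBJ2-2. Among CDR3s that reached 1000 reads in some mouse, 23.8% of those with TRBJ2-7, 17.7% with TRBJ2-2, 15.0% with TRBJ1-2, 7.28% with TRBJ2-1, 7.10% with TRBJ1-1 and 2.30% with TRBJ2-5 were members. The share was 3.77% for TRBJ2-4 and 0 of 268 for TRBJ1-6. Among members with 100 reads in 2 to 9 mice TRBJ2-7 was at 56.7% and TRBJ1-1 at 12.4%. By reads, TRBJ2-2 took 22.0%, 18.1%, 17.4% and 18.8% of the members' reads in the SCR mice and 14.9%, 16.1%, 16.9%, 14.0% and 13.9% in the KO mice, with no overlap. For TRBJ2-7 the groups overlapped, at 51.2% to 58.5% in SCR and 55.3% to 61.5% in KO mice. Of the members' 8 J genes only TRBJ2-2 was without overlap, and its difference was not tested.

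**Figure D5:**
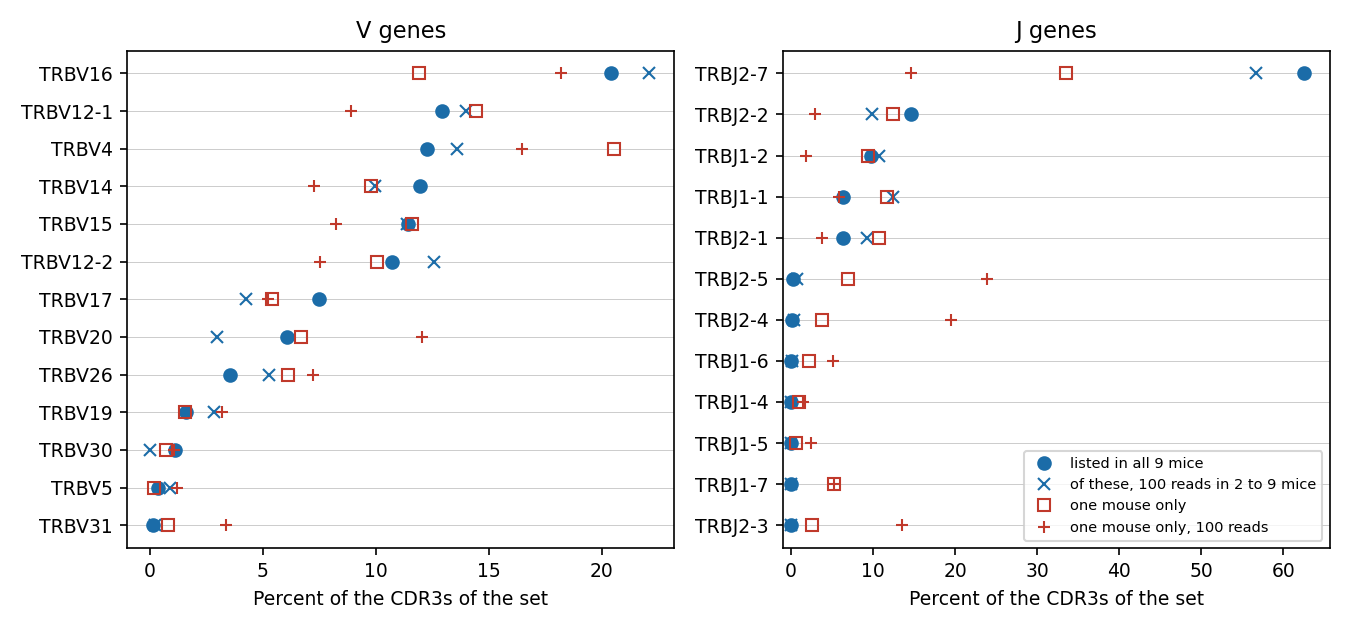
Percent of the CDR3s of a set (x axis) that use each V gene (left) or J gene (right), for the CDR3s listed in all 9 mice (filled circles), those of them with 100 reads in 2 to 9 mice (crosses), CDR3s of 1 mouse only (squares) and the latter with 100 reads (plus signs); genes under 0.5% in both the members and the one-mouse CDR3s with 100 reads are left out. TRBJ2-7 stands at 62.5% and 33.5% among the members and the one-mouse CDR3s, while TRBJ2-5, TRBJ2-4 and TRBJ2-3 are near 0 among the members.

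Whether single members differed in read share between KO and SCR mice was tested with edgeR's quasi-likelihood test on the read counts of the 19137 CDR3s listed in at least 4 mice, with Benjamini-Hochberg adjustment over all of them. It called 0 of the 2698 members at an adjusted p below 0.05, with 14 calls over all CDR3s tested (0.0732% of them) and 0 to 3 when any 1 mouse was left out. The 0 calls do not show that the members did not differ. At an unadjusted p below 0.05 there were 944 members (35.0%), 373 higher and 571 lower in KO mice, beside 39.6% of all CDR3s tested. The median log2 fold change, KO over SCR, was -0.06 over the members and 0.58 over all CDR3s tested. DESeq2 called 287 members, 250 higher and 37 lower in KO mice, of the 1258 for which it gave an adjusted p (22.8%), beside 23.2% of all CDR3s with one; limma voom called 0. DESeq2 gave no adjusted p to most CDR3s. At an unadjusted p below 0.05 it had 311 members and 1225 CDR3s over all. These were 24.1% of the members and 13.7% of the CDR3s to which it gave an unadjusted p, not of all tested. DESeq2 was run with its own scaling factors, while edgeR and voom used all reads as library size. The call thus depended on the tool together with its scaling.

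The 3 members of smallest p show what such differences rest on. Rank 437 (TRBV20, TRBJ1-2, 12 amino acids) had 5, 8230, 3 and 3870 reads in SCR mice 1 to 4 and 3, 1, 2, 1 and 4 in KO mice 1 to 5. Its log2 fold change was -10.36 ± 3.59 (SE), with an adjusted p of 0.125 in edgeR. Rank 186 (TRBV12-1, TRBJ1-2, 14 amino acids) had 6, 18737, 10 and 8 reads in the SCR mice and 5, 6, 4, 3 and 6 in the KO mice. It was encoded by 1 nucleotide sequence, its log2 fold change was -9.83 ± 3.46 (SE), with an adjusted p of 0.125 in edgeR, and without SCR 2 the change was -0.82. Rank 151 (TRBV14, TRBJ1-1, 14 amino acids) had 3366, 16518, 6 and 6 reads in the SCR mice and 6, 8, 2, 5 and 8 in the KO mice, with a log2 fold change of -9.71 ± 3.43 (SE) and an adjusted p of 0.125 in edgeR. All 3 were high in 1 or 2 SCR mice and at a few reads in the other SCR mice, and the ranges of reads in the 2 groups overlapped or touched.

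By read share, 36 members (1.33%) were higher in every KO mouse than in every SCR mouse, beside 0.914% of all CDR3s tested, and 30 (1.11%) were higher in every SCR mouse, beside 0.805%.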

How the data were processed

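T-cell receptor beta sequencing of blood mononuclear cells was analysed in 9 mice, 4 with SCR and 5 with KO tumours; the other assays of the series were not used here. Per the file headers, each deposited table gives for every clonotype a read count, its fraction of the reads, the nucleotide and amino acid CDR3, the V, D and J genes and the inserted bases. The clonotype caller and its settings are not given in the sources used here, nor are molecular identifiers. The fraction column deposited by the authors was not used in place of counts; shares were computed as reads over all reads of the table.

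Reads were summed per CDR3 amino acid sequence. The V gene, J gene and insertions of a CDR3 are those of its nucleotide sequence with most reads. Members, one-mouse CDR3s and the other sets and lists were chosen with earlier results of these data known; the limits of 100, 1000 and 6000 reads were chosen after seeing the data. Named by rule were the 5 members of largest and the 3 of smallest mean share, the 3 with most nucleotide sequences, and the members called by edgeR or, with none, the 3 of smallest p; for V genes the 5 most frequent and the 3 highest and 3 lowest ratios among genes with 1% of either set; all J genes.

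The test used edgeR 4.0.16 in R 4.3.3 (glmQLFit, glmQLFTest) on the counts, with library size equal to all reads and no TMM factors, for CDR3s listed in at least 4 mice; SEs were computed from the fold change and its F value. DESeq2 1.42.0, limma 3.58.1 (voom), TMM factors, other filters, a replicate block and each mouse left out were alternatives. The membership alternatives were 2 and 10 reads per clonotype, thinning to the lowest total, the same V and J gene, and the same nucleotide sequence. The fitting script was also run on simulated counts with known changes. At the dispersion of these counts edgeR did not recover those changes, so its lack of calls among members carries little weight. Nothing in the labels states separate cohorts or batches, so p-values measure the spread between these samples. Tables used Python 3.11.15 with pandas 2.3.3, scipy 1.17.1 and matplotlib 3.10.9.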

Additional observations from a re-analysis of the deposited data

Results flagged for a closer look

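Of 82 groups of values examined for 1 mouse standing apart from the rest of its group by Dixon's criterion at 95%, 3 held such a mouse. Chance alone gives about 1 in 20, a rate that does not apply to members named through the same reads. The read share of the member of rank 1 was 1.33% in KO 2, the highest of the 5 KO mice by far. The read share of the member of rank 186 was 0.285% in SCR 2, far above the other 3 SCR mice. Both members were named through these reads, rank 1 by its mean share and rank 186 by its small p in edgeR. Their flags thus follow from the choice and add nothing to it. The share of members with fewer than 10 reads was 67.7% in SCR 3, below the other 3 SCR mice.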

How the results depend on the processing

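The number of CDR3s listed in all 9 mice was 1419 when clonotypes of 1 read were dropped, 24 with clonotypes of at least 10 reads, 2062 with the same V and J gene, 1420 with the same nucleotide sequence and 1 with at least 100 reads in every mouse, an alternative chosen after seeing the data; without 1 mouse it was 2942 to 3035. The SCR mean read share was 1.92% at 10 reads, 21.8% with the same nucleotide sequence and 0.197% at 100 reads, and 37.0% to 47.7% without 1 mouse. The KO mean was 15.6% at 2 reads, 1.38% at 10 reads, 10.5% with the same V and J gene, 4.68% with the same nucleotide sequence and 0.0691% at 100 reads, and 25.5% to 26.8% without 1 mouse. The difference, KO minus SCR, kept its sign in all of these; it was -0.54 points at 10 reads and -0.128 points at 100 reads, and -21.7 to -11.2 without 1 mouse.

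The length difference was -2.07 at 2 reads, -1.59 at 10 reads, -1.15 with the same V and J gene and -1.49 with the same nucleotide sequence, and -1.87 to -1.79 without 1 mouse. The difference in nucleotide sequences was 0.953 at 2 reads, 0.969 at 10 reads and 0.399 with the same V and J gene, and 1.01 to 1.03 without 1 mouse. The insertion difference was -6.23, -3.92, -3.94 and -3.92 at 2 reads, 10 reads, the same V and J gene and the same nucleotide sequence, and -5.57 to -5.33 without 1 mouse. No direction reversed. Weighted by reads, TRBJ2-7 was at 56.7% and the TRBJ2 cluster at 78.4%.

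Calls over all CDR3s, 14 with edgeR, were 1 with TMM factors, 874 with DESeq2, 0 with limma voom, 0 at 2 mice, 2 at 6 mice, 0 with no filter and 0 to 3 without 1 mouse; members called were 0 in each but DESeq2, with 287. With the replicate number as a block, 0 CDR3s and 0 members were called. Same-numbered SCR and KO samples correlated at 0.00665, 0.00775, -0.00935 and -0.0100 in the members' read shares, and pairs of different numbers at -0.0387 to 0.0304. The numbers thus showed no pairing in these shares. A pairing that leaves clone sizes unchanged would not show here. DESeq2 moved ranks 437 and 151 to adjusted p-values of 7.57e-07 and 8.32e-07.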
